A study of Mus musculus with 16 samples.

Results

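The Hox genes of C2C12, an established mouse myoblast line, were followed in RNA recovered by immunoprecipitation from cytoplasmic extracts and measured on Illumina bead arrays. Members were taken by gene symbol: every probe annotated as Hoxa, Hoxb, Hoxc or Hoxd followed by digits, which gave 50 of 25697 probes, for 38 of 16590 genes with a symbol. The 16 arrays formed 4 groups of 4 replicates. DM MYF5 and DM IgG were extracts of cells moved to differentiation medium with low horse serum, from which RNA was pulled down with anti-MYF5 or a control IgG. MYF5 is a transcription factor of the muscle lineage. GM MYF5 and GM IgG were the same precipitations from dividing cells in growth medium with fetal bovine serum. All groups were unmodified cells of this 1 line, and the comparison of MYF5 with IgG asks which RNAs the MYF5 antibody recovered beyond the nonspecific recovery of IgG. RNA before precipitation was not analysed here, so a level is a level in a precipitate. Nothing in the labels says that the replicates were separate cultures, and p-values therefore measure only the spread between these samples.

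Hox genes encode homeodomain transcription factors that give cells along the head-to-tail axis and along the limb their positional identity. They lie in clusters named A to D, and a gene's number gives its place, with low numbers active anteriorly and high numbers posteriorly. Genes of the same number in different clusters are paralogs. Cells in culture often keep the Hox pattern of the body region they came from, with silent stretches of a cluster held by Polycomb complexes and active stretches by Trithorax complexes, and Hox proteins bind DNA together with TALE homeodomain partners of the Pbx and Meis families.

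Mean signal per array lay between 323.7 and 581.4, and 46.4 to 50.9% of probes were detected. The share detected was 46.4 to 49.4% on GM arrays and 49.4 to 50.9% on DM arrays. Median signal was 69.9 to 82.8 on GM arrays and 65.4 to 73.4 on DM arrays. The labels do not say which chip held which array, and the part of these differences in the Hox values was not tested. Of 10 myoblast and myotube markers with a probe, 9 were detected on at least 4 arrays, among them Des, Myod1 and Acta1 on all 16, while Myf5 itself was detected on 1 array. The markers of blood and of adipocytes with a probe were detected on no array, and neither were Alb and Afp of liver or Pecam1 and Cdh5 of endothelium. Other markers of non-muscle cells were detected: Cdh1 of epithelium on 14 arrays, Kdr of endothelium on 15, the bone and cartilage genes Bglap on 10, Sp7 on 9 and Col2a1 on 6, and the fibroblast and matrix genes Col3a1 and Pdgfra on all 16 and Col1a1 on 9. Array 4 of GM IgG stood apart from its group: it had the lowest mean signal of all arrays, and the log2 gap between its brightest and dimmest Actb probes was 4.21, against 6.56 to 7.62 on the other GM IgG arrays. Calls that changed without it are given with the member.

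A probe was called detected when its detection p, computed from that array's negative control beads, was under 0.05 on at least 4 of the 16 arrays. This held for 18 of the 50 Hox probes, which covered 15 of 38 genes. The same rule kept 13884 of all 25697 probes, a larger share. On all 16 arrays 13 Hox probes were detected, for 11 genes, and 23 Hox probes were detected on none. The 32 undetected probes had signals between 44.1 and 86.5 with a median of 62.7.

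Detection was uneven between clusters. HoxA had 7 of its 10 measured genes detected: Hoxa2, Hoxa4, Hoxa5, Hoxa7, Hoxa9, Hoxa11 and Hoxa13. HoxC had 5 of 9, namely Hoxc4, Hoxc6, Hoxc9, Hoxc10 and Hoxc13. HoxD had 2 of 9, Hoxd11 and Hoxd13, and neither was detected on all arrays. HoxB had only Hoxb4 of 10 genes. A gene counts here when any of its probes passed, and HoxA genes had more probes. By probe, 9 of 17 passed in HoxA, 6 of 11 in HoxC, 2 of 9 in HoxD and 1 of 13 in HoxB. The shares of HoxA and HoxC were thus about the same by probe.

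By position, 1 of 7 anterior genes (positions 1 to 3), 6 of 15 central genes (positions 4 to 8) and 8 of 16 posterior genes (positions 9 to 13) were detected. Counted by probe, these were 2 of 12 anterior, 6 of 15 central and 10 of 23 posterior, so central and posterior were close. The only anterior gene was Hoxa2, whose 2 probes were detected on 6 and 4 arrays. No gene at positions 1, 3, 8 or 12 passed. At position 4, Hoxa4, Hoxb4 and Hoxc4 passed, and at position 13, Hoxa13, Hoxc13 and Hoxd13.

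**Figure D1:**
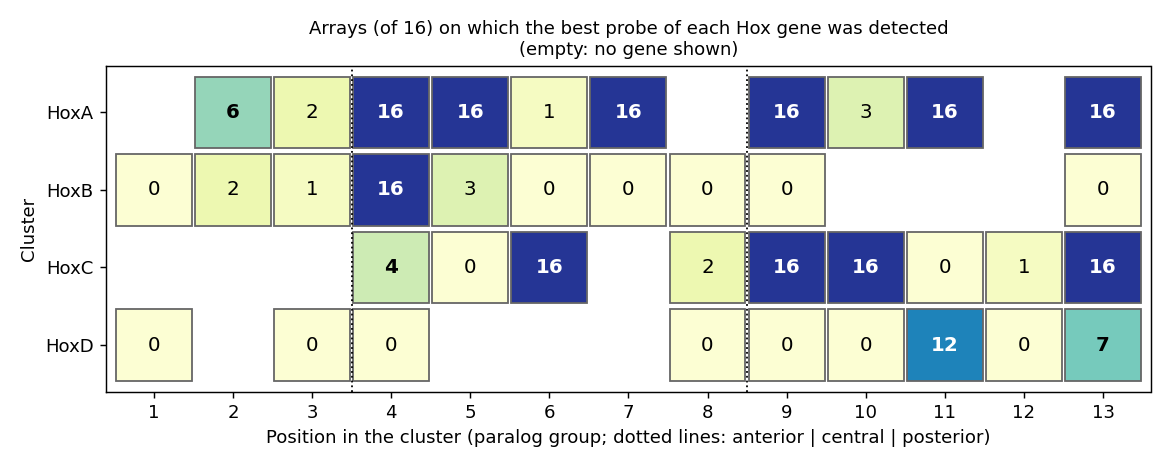
Number of arrays, out of 16, on which the best probe of each Hox gene was detected, by cluster (rows) and position in the cluster (columns); bold numbers mark genes with a probe detected on at least 4 arrays. Cells at 16 are Hoxa4, Hoxa5, Hoxa7, Hoxa9, Hoxa11, Hoxa13, Hoxb4, Hoxc6, Hoxc9, Hoxc10 and Hoxc13, and HoxD reaches 12 at Hoxd11.

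The members nearest to the threshold were dim. Just inside it stood Hoxc4 and Hoxa2 (ILMN_2618302) with 4 arrays each, and Hoxd13 with 7. Just outside it stood Hoxa10 (ILMN_2672443) and Hoxb5 with 3 arrays each, and Hoxa3, Hoxb2 and Hoxc8 with 2. Signals of these inside and outside members overlapped, 56.3 to 90.6 for Hoxc4, Hoxa2 and Hoxd13 and 54.9 to 86.5 for the 5 genes outside. Hoxa6, Hoxb3 and Hoxc12 were detected on 1 array each. Hoxb1, Hoxb6, Hoxb7, Hoxb8, Hoxb9, Hoxb13, Hoxc5, Hoxc11, Hoxd1, Hoxd3, Hoxd4, Hoxd8, Hoxd9, Hoxd10 and Hoxd12 were detected on none.

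Probes of the same gene did not always give the same answer. Hoxa9 had 2 probes detected on all 16 arrays, with signals of 130.8 to 619.8, and ILMN_2772762 detected on 1. Hoxa13 had ILMN_3087004 on all 16 and 2 probes detected on none. Both Hoxc10 probes were on all 16 arrays. A gene without a detected probe is therefore one whose RNA these probes did not find above background, not one shown to be silent.

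Among the dim members, detection by group rested on few arrays. Hoxc4 was detected on 0 of 4 DM MYF5 arrays, 3 DM IgG arrays, 1 GM MYF5 array and 0 GM IgG arrays. Hoxd13 was detected on 1 DM MYF5 array, 2 DM IgG arrays, 0 GM MYF5 arrays and all 4 GM IgG arrays. Hoxd11 was detected on 3 arrays of every group. Counts this small at signals near background were not tested.

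Hoxa5, Hoxa7 and Hoxa9 are the HoxA genes that were higher with anti-MYF5 in both media, and their 250 bases upstream of the gene start are shown for that reason, from RefSeq (GRCm38.p6). Of the Hox genes, 22 matched the RefSeq promoter table. The windows lie on the minus strand at chr6:52204588-52204837 for Hoxa5, chr6:52218574-52218823 for Hoxa7 and chr6:52227371-52227620 for Hoxa9. Capitals mark CANNTG, the E-box recognised on DNA by basic helix-loop-helix factors, which reads the same on both strands.
Hoxa5: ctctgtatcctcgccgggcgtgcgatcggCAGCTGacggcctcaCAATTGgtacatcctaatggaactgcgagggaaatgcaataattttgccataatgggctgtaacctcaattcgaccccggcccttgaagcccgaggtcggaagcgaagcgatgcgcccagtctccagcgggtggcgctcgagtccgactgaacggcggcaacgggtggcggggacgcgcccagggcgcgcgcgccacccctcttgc
Hoxa7: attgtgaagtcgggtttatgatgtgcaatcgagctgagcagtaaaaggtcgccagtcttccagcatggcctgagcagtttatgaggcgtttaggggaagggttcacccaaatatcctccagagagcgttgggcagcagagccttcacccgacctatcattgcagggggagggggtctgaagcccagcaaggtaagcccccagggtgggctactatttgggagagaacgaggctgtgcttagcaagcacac
Hoxa9: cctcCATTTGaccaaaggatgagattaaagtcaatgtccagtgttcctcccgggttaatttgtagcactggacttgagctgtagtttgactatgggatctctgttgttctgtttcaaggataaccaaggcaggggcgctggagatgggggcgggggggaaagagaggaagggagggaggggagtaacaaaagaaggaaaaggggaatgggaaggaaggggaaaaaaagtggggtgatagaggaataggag
The Hoxa5 window held 2 such motifs, 1 of them CAGCTG, the Hoxa9 window 1 and the Hoxa7 window 0. Of 32851 promoter windows of this length 66.2% held CANNTG and 13% held CAGCTG, so a match is common. The Hoxa5 window was the richest of these in CpG, with 28 against 7 in Hoxa7 and 3 in Hoxa9. The arrays measured RNA in a precipitate, not binding to these windows, and the matches are a description of letters only.

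Values below are log2 signals after background correction and quantile normalization, so a difference is one of standing among all RNAs measured. Each comparison comes from one limma model over all 16 arrays and all 13884 detected probes, and a probe is called when its Benjamini-Hochberg adjusted p is under 0.05. Comparisons that use the same group share its arrays.

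With anti-MYF5 against IgG in DM, 8 of the 18 Hox probes were higher and 1 was lower, 50% called, against 52.9% of all detected probes (26.7% higher, 26.2% lower). In GM 5 were higher and 1 was lower, 33.3% called, against 48.8% of all detected probes (26.7% higher, 22.1% lower). Without array 4 of GM IgG the GM count was 5 higher and 2 lower, Hoxa11 being added. It was also 5 higher and 2 lower without array 1 or array 3 of GM IgG, and 6 higher and 2 lower without array 3 of GM MYF5. Among the 13 probes detected on all 16 arrays, 7 were higher and 1 lower in DM, and 5 higher and 1 lower in GM. Over the 18 Hox probes neither share of calls was above that of all detected probes. The higher calls alone were a larger share in DM, 8 of 18 against 26.7%, which was not tested. They include both detected Hoxa9 probes, which are of 1 gene. They also include Hoxa2 ILMN_2874270, which passed the detection filter only with the DM MYF5 arrays where it was higher. In GM the higher calls were 5 of 18, against 26.7% of all detected probes, which is about the same share. With a filter of detection on all 4 arrays of a group, 8 of 14 Hox probes were called in DM and 6 of 14 in GM. Of all probes under that filter 56.6% and 51.5% were called. The median log2 fold change of the 18 Hox probes was 0.21 in DM, against 0.02 for all probes, and 0.13 in GM, against 0.04. The members called in both media were Hoxa5, Hoxa7, both detected Hoxa9 probes and Hoxc6, all higher, and Hoxc9, lower.

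The anti-MYF5 and IgG arrays also differed in the Actb probes. The log2 gap between ILMN_2698799 and ILMN_2588055 was 2.61 ± 0.76 in DM MYF5 and 4.73 ± 0.81 in DM IgG, and 3.94 ± 0.52 in GM MYF5 and 6.42 ± 1.53 in GM IgG (SD, n = 4 each). A fit with this gap as a covariate ended or added some Hox calls, which are given with the member, and the part of the gap in the other results was not tested further.

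Hoxa9, a posterior gene of the A cluster known for its role in limb patterning and in blood stem cells, had the largest change among the detected Hox probes. In DM its probe ILMN_2645155 read 8.20, 8.69, 8.56 and 8.68 on the MYF5 arrays, against 6.54, 6.99, 6.89 and 6.60 on the IgG arrays. In GM it read 8.28, 8.70, 8.71 and 8.94 with MYF5, against 7.02, 7.32, 7.15 and 7.56 with IgG. Every MYF5 array stood above every IgG array in each medium. The log2 fold change was 1.78 in DM (SE 0.16, adjusted p = 2.3e-08), a 3.43-fold difference that ranked 13 of 13884 probes from the top. In GM it was 1.39 (SE 0.16, adjusted p = 3.2e-07), a 2.63-fold difference that ranked 84. Exact two-sided permutation of the 8 arrays gave p = 0.0286 in each medium, the smallest value 4 against 4 allows.

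The other detected Hoxa9 probe, ILMN_1258462, moved alike, by 1.65 in DM (3.15-fold, adjusted p = 6.1e-08) and 1.32 in GM (2.49-fold, adjusted p = 9.7e-07). The calls of both probes were kept with the Actb gap as a covariate, at 1.45 in DM and 1.01 in GM for ILMN_2645155. ILMN_2772762, which was not detected, was not part of this test. In a fit without the detection filter it was higher by 0.20 in DM (adjusted p = 0.039) and by 0.38 in GM (adjusted p = 2.4e-04).

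Hoxa5, a central gene that acts in lung, cervical and thoracic patterning, was the next highest with MYF5. In DM it read 8.15, 8.33, 8.21 and 8.26 with MYF5, against 6.77, 6.92, 6.81 and 6.98 with IgG. In GM it read 8.74, 8.80, 8.58 and 8.71 with MYF5, against 8.02, 7.65, 7.91 and 7.73 with IgG. The groups did not overlap in either medium. The difference was 1.36 in DM (SE 0.11, 2.58-fold, adjusted p = 9.8e-09) and 0.88 in GM (SE 0.11, 1.84-fold, adjusted p = 1.3e-06), with an exact two-sided permutation p of 0.0286 in each.

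Hoxc6, a central HoxC gene expressed in the thorax and forelimb region of embryos, was higher by less. In DM it read 11.43, 11.48, 11.45 and 11.39 with MYF5, against 10.75, 10.71, 10.84 and 10.67 with IgG. In GM it read 10.31, 10.67, 10.31 and 10.57 with MYF5, against 9.95, 10.07, 10.01 and 9.96 with IgG. All MYF5 arrays were again above all IgG arrays. The log2 fold change was 0.69 in DM (SE 0.10, adjusted p = 3.9e-06) and 0.47 in GM (SE 0.10, adjusted p = 3.2e-04). The GM value was 0.75 with median scaling and 0.89 without scaling, both called.

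Hoxa7, a central gene of the thoracic region, was higher by 0.39 in DM (SE 0.10, adjusted p = 2.2e-03) and 0.43 in GM (SE 0.10, adjusted p = 1.2e-03). Its arrays read 10.44, 10.39, 10.57 and 10.49 in DM MYF5, against 9.86, 10.11, 10.30 and 10.06 in DM IgG. In GM they read 10.23, 10.20, 10.32 and 10.29 with MYF5, against 9.78, 9.82, 9.79 and 9.95 with IgG. The groups were separate in both media, by little in DM. With the Actb gap as a covariate the difference was 0.26 in DM (adjusted p = 0.081) and 0.27 in GM (adjusted p = 0.098), and the calls were lost. The DM call was also lost with median scaling (0.30, adjusted p = 0.16) and without scaling (0.32, adjusted p = 0.22), while the GM value was then 0.71 and 0.84, both called.

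Hoxc9, a posterior HoxC gene that marks thoracic level in the nervous system and somites, was the only one of the 18 detected Hox probes called lower with MYF5 by the model over all arrays, in each medium. In DM it read 9.54, 9.46, 9.22 and 9.79 with MYF5, against 10.24, 10.37, 10.48 and 10.59 with IgG. In GM it read 9.19, 9.44, 9.42 and 9.56 with MYF5, against 10.29, 10.55, 10.29 and 10.45 with IgG. Every MYF5 array was below every IgG array. The log2 fold change was -0.92 in DM (SE 0.12, adjusted p = 2.8e-06) and -0.99 in GM (SE 0.12, adjusted p = 1.0e-06), with an exact two-sided permutation p of 0.0286 in each, the lowest value possible. With the Actb gap as a covariate the values were -0.88 in DM and -0.95 in GM, and both calls were kept. Without scaling the GM value was -0.61 (adjusted p = 0.025).

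**Figure D2:**
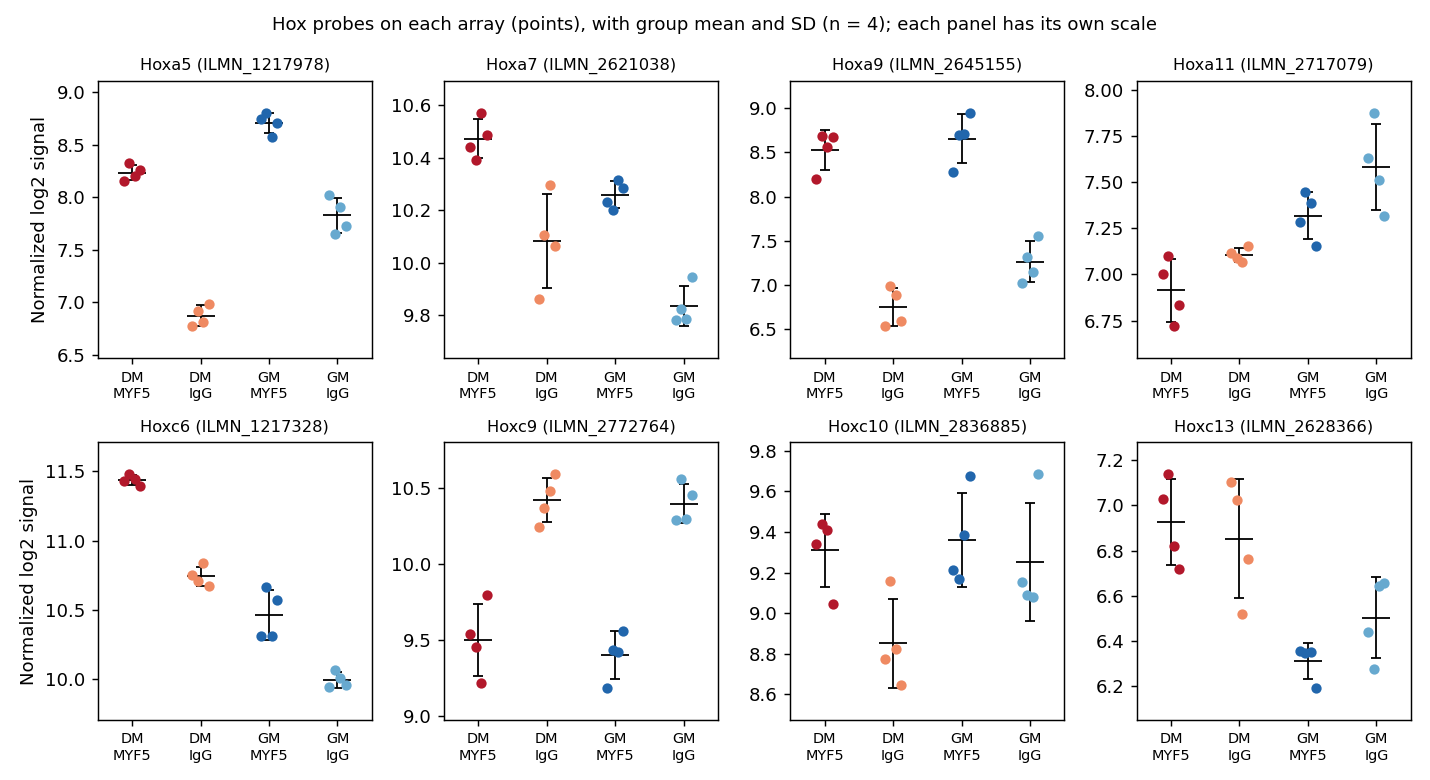
Normalized log2 signal of 8 Hox probes on each array (points), with group means and SD (n = 4), for DM MYF5, DM IgG, GM MYF5 and GM IgG from left to right; each panel has its own scale. In the Hoxa5, Hoxa9 and Hoxc6 panels each MYF5 group stands above its IgG group, and for Hoxc9 each MYF5 group is the lower one.

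Hoxb4, the only detected HoxB gene and known for its role in blood stem cells, was called in DM. It read 5.67, 6.01, 5.79 and 5.95 with MYF5 in DM, against 5.30, 5.45, 5.38 and 5.58 with IgG, which are separate groups. The difference was 0.43 (SE 0.13, adjusted p = 8.9e-03), and 0.40 without scaling (adjusted p = 0.059). In GM it was 0.15 (adjusted p = 0.36), and array 4 of GM IgG read 5.05 where the other 3 read 5.57 to 5.66. Without that array the GM difference was 0.01 (adjusted p = 0.94). Other settings called it higher in GM, namely the fit with the Actb covariate, at 0.44 (adjusted p = 0.043), where the DM value was 0.67, and that without scaling, at 0.45 (adjusted p = 0.030).

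Hoxc10 and Hoxa2 were called in DM for 1 probe each, and the 2 probes of each gene did not give the same call. Hoxc10, a posterior gene used in the hindlimb and lumbar region, was higher by 0.46 at ILMN_2836885 (adjusted p = 0.014) and by 0.18 at ILMN_2836888 (adjusted p = 0.31) in DM. ILMN_2836885 read 9.34, 9.44, 9.41 and 9.04 with MYF5, against 8.77, 9.16, 8.82 and 8.65 with IgG, so the groups overlapped. Its call was lost with the Actb gap as a covariate, at 0.04 (adjusted p = 0.84), with median scaling (adjusted p = 0.094), without scaling (adjusted p = 0.13) and without array 4 of DM IgG. In GM the 2 probes differed by 0.11 and 0.09, neither called, and by 0.25 and 0.18 without array 4 of GM IgG. Without scaling both were called higher in GM, at 0.53 (adjusted p = 0.030) and 0.50 (adjusted p = 0.045), while with the Actb gap as a covariate ILMN_2836885 was -0.38 in GM, with an adjusted p that rounds to 0.05.

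Hoxa2, an anterior gene of the hindbrain and branchial arches, was close to the detection limit. ILMN_2874270 read 5.25, 4.87, 5.13 and 4.78 with MYF5 in DM, against 4.90, 4.59, 4.58 and 4.65 with IgG, with overlap. The difference of 0.33 (adjusted p = 0.028) was called, and it was lost with the Actb gap as a covariate (adjusted p = 0.095) and without array 1 or 3 of DM MYF5 or array 2, 3 or 4 of DM IgG, with values of 0.25 to 0.40 over the 8 fits that left out an array. ILMN_2618302 differed by 0.18 (adjusted p = 0.13). Of the 6 arrays on which ILMN_2874270 was detected, 3 were DM MYF5, the higher group, and without them it would not have passed the filter of 4 arrays. In the fit without the detection filter its difference was 0.33 (adjusted p = 0.031). In GM it differed by 0.28 (not called) and was called without scaling (0.37, adjusted p = 0.031).

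The other detected members were not called for MYF5 in either medium by the model over all arrays. Hoxa11 and Hoxa13, posterior HoxA genes of the forearm and hand, differed by -0.19 and 0.18 in DM and by -0.27 and 0.17 in GM. In GM, Hoxa11 was called without array 4 of GM IgG (-0.36, adjusted p = 0.028), and Hoxa13 with median scaling (0.42, adjusted p = 0.014) and without scaling (0.55, adjusted p = 3.7e-03). Hoxa4 differed by 0.23 in DM, where the groups were separate (adjusted p = 0.11), and by -0.21 in GM. Hoxc4, Hoxc13, Hoxd11 and Hoxd13 lay between -0.17 and 0.07 in DM and between -0.27 and -0.02 in GM. With the Actb gap as a covariate Hoxc4 was called lower in DM (-0.39, adjusted p = 0.043). Of the 4 arrays on which Hoxc4 was detected, 3 were DM IgG, the higher group in that comparison. Without them it would not have passed the detection filter, so this call is not separate from the filter. In the counts of probes whose groups do not overlap, 7 were higher and 1 lower in DM, beside 50.2% of all probes separate either way, and 6 were higher and 1 lower in GM, beside 40.4%.

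**Figure D3:**
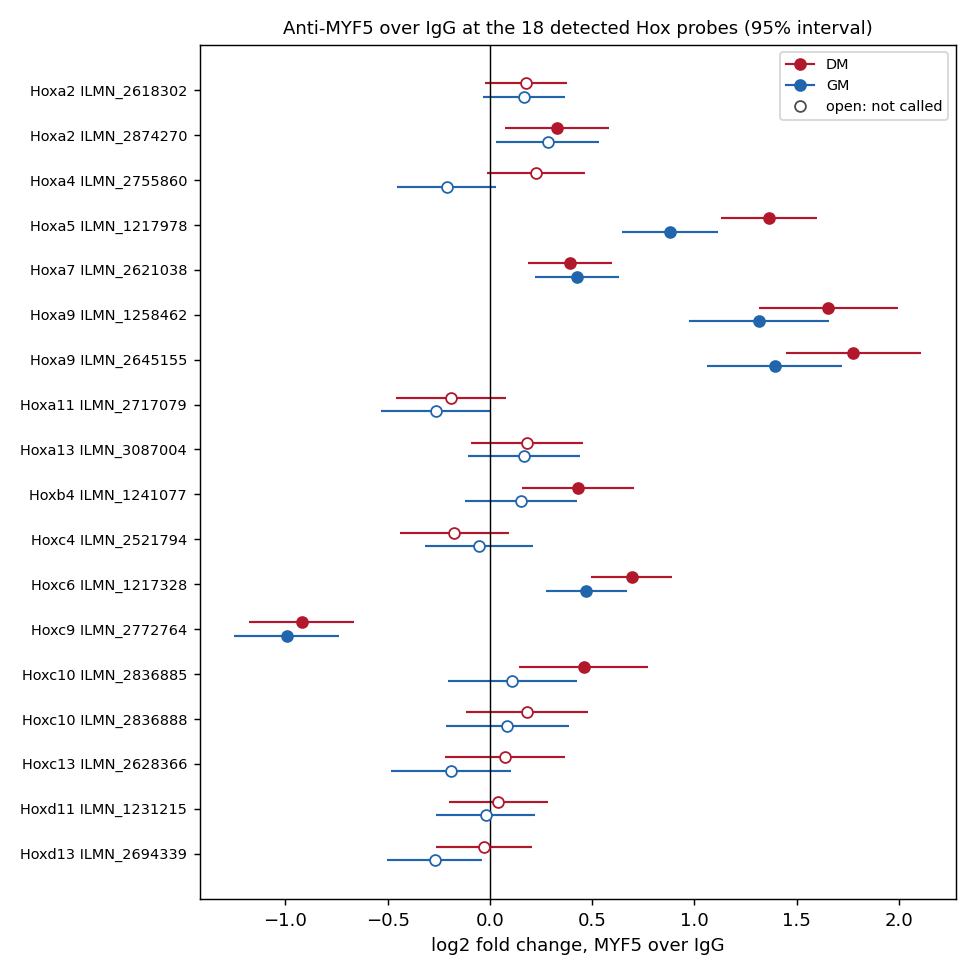
Log2 fold change of MYF5 over IgG with 95% intervals from the limma model for the 18 detected Hox probes, in DM and GM (open points: not called). Hoxa9 and Hoxa5 lie furthest to the right and Hoxc9 furthest to the left in both media.

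In the test of whether the change with MYF5 differed between media, 0 of the 18 Hox probes were called, against 5.67% of all detected probes called (2.32% higher, 3.35% lower). With limma, 2 of the 18 had an unadjusted p under 0.05. For Hoxa5 the DM minus GM difference was 0.48 (95% interval 0.15 to 0.81, adjusted p = 0.076), and for Hoxa4 0.44 (interval 0.10 to 0.78, adjusted p = 0.12). For Hoxa9 ILMN_2645155 it was 0.38, with an interval of -0.08 to 0.85. These differences depended on the scaling. With median scaling they were 0.02 for Hoxa5, 0.26 for Hoxa4 and -0.11 for Hoxa9 ILMN_2645155, and without scaling -0.09, 0.14 and -0.22. The direction turned for 9 of the 18 probes with median scaling and for 13 without scaling. Missing the threshold does not show that the change was equal in both media. Without array 4 of GM IgG, Hoxa5 was called at 0.52 (adjusted p = 0.048).

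The comparison of DM with GM asks which RNAs differ between precipitates of cells in differentiation medium and in growth medium. A change of RNA in the cells and a change in its recovery cannot be told apart here. The summed signal of the myoblast and myotube markers was 58760 to 78275 in DM MYF5 and 100344 to 111052 in DM IgG, against 3152 to 5759 in GM MYF5 and 4246 to 5511 in GM IgG. The fibroblast and matrix markers also differed between the media, with summed signals of 1623 to 3513 in DM MYF5 and 2758 to 5394 in DM IgG, against 636.2 to 1034 in GM MYF5 and 577.4 to 863.1 in GM IgG. The part of these in the Hox values was not tested. In such bulk extracts, fewer cells of a type and less RNA per cell cannot be told apart.

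In the MYF5 precipitates, 2 Hox probes were higher and 2 were lower in DM than in GM, 22.2% called, against 61.2% of all detected probes (27.7% higher, 33.5% lower). In the IgG precipitates, 3 were higher and 7 lower, 55.6% called, against 62.8% of all detected probes (28.7% higher, 34.1% lower). Without array 4 of GM IgG the IgG count was 3 higher and 6 lower. The median size of the change was 0.15 in the MYF5 precipitates and 0.28 in the IgG precipitates, against 0.45 and 0.46 for all probes. Under median scaling or without scaling the IgG count was 3 higher and 1 lower, and with the deposited z-scores 3 higher and 2 lower.

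Hoxc6 was higher in DM in both precipitates. With MYF5 its 4 DM values given above, 11.39 to 11.48, all exceeded its 4 GM values, 10.31 to 10.67. With IgG they were 10.67 to 10.84 in DM and 9.95 to 10.07 in GM. The log2 fold change was 0.97 with MYF5 (SE 0.10, adjusted p = 1.5e-08) and 0.75 with IgG (SE 0.10, adjusted p = 6.7e-07), with an exact two-sided permutation p of 0.0286 each. Both calls were kept in all 12 other settings tried.

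Hoxc13, a gene of hair and nails at the posterior end of its cluster, was higher in DM by 0.61 with MYF5 (adjusted p = 7.6e-04). It read 7.03, 7.14, 6.82 and 6.72 in DM MYF5, against 6.36, 6.35, 6.35 and 6.19 in GM MYF5, with no overlap. With IgG the difference was 0.35 (adjusted p = 0.036), with overlapping values of 7.10, 7.03, 6.52 and 6.76 in DM, against 6.44, 6.28, 6.64 and 6.66 in GM. The call with IgG was lost with the Actb gap as a covariate (0.30, adjusted p = 0.14), without the detection filter (adjusted p = 0.073) and in the fit of only the groups compared (adjusted p = 0.066). The value was 0.67 with median scaling and 0.77 without scaling, both called. The call was also lost without array 1 or 2 of DM IgG or of GM IgG (0.27 to 0.46 over the 8 fits that left out an array).

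Hoxa5 was lower in DM. Its MYF5 values of 8.15 to 8.33 in DM lay below those of 8.58 to 8.80 in GM, and its IgG values of 6.77 to 6.98 in DM below those of 7.65 to 8.02 in GM. The log2 fold change was -0.47 with MYF5 (SE 0.11, adjusted p = 9.9e-04) and -0.96 with IgG (SE 0.11, adjusted p = 1.9e-07). Both calls were kept in the 12 other settings, with the IgG value at -0.57 without scaling (adjusted p = 0.033).

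Hoxa11, a gene of the forearm skeleton and the uterus, was lower in DM, at -0.40 with MYF5 (adjusted p = 0.010) and -0.48 with IgG (adjusted p = 3.0e-03). Its values lay between 6.72 and 7.10 in DM MYF5, against 7.28, 7.45, 7.39 and 7.15 in GM MYF5. It read 7.12, 7.09, 7.07 and 7.15 in DM IgG, against 7.63, 7.87, 7.51 and 7.31 in GM IgG. Groups were separate in both. The MYF5 call was lost without scaling (-0.50, adjusted p = 0.067) and with the Actb gap as a covariate (-0.31, adjusted p = 0.061), and the IgG call was lost under median scaling (-0.20, adjusted p = 0.43), without scaling (-0.10, adjusted p = 0.75) and in z-scores.

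In the IgG precipitates the other calls were Hoxa4 (-0.39, adjusted p = 5.4e-03), both Hoxa9 probes (-0.51 at ILMN_2645155, adjusted p = 8.4e-03, and -0.50 at ILMN_1258462, adjusted p = 0.012), Hoxc10 at ILMN_2836885 (-0.40, adjusted p = 0.026), Hoxd13 (-0.32, adjusted p = 0.019) and Hoxa7 (0.25, adjusted p = 0.035). Without Hoxd13, which passed the detection filter only through the GM IgG arrays where it was higher, the count is the 3 higher and 6 lower of the 13 probes detected on all 16 arrays. The calls of Hoxa4, Hoxa9 and Hoxc10 were lost under median scaling, without scaling and with the z-scores. That of Hoxd13 was lost under median scaling (-0.22, adjusted p = 0.092), without scaling (-0.12, adjusted p = 0.41), with cyclic loess (-0.19, adjusted p = 0.12) and in the fit of only the groups compared (adjusted p = 0.052). That of Hoxa7 was lost with the Actb gap as a covariate (0.14, adjusted p = 0.27) and in the fit of only the groups compared (adjusted p = 0.077), and its value was 0.42 with median scaling and 0.52 without scaling. With the Actb gap as a covariate Hoxa9 ILMN_2645155 was at -0.77 and Hoxc10 at -0.73 and, at ILMN_2836888, -0.44 (adjusted p = 0.020), a call that the model without it did not make. Leaving out an array ended the call of Hoxa7 without array 1, 2 or 3 of GM IgG or 2, 3 or 4 of DM IgG (0.18 to 0.32), of Hoxa9 ILMN_1258462 without array 1 of DM IgG (-0.63 to -0.38), of Hoxc10 without array 4 of GM IgG or 1, 3 or 4 of DM IgG (-0.50 to -0.26), and of Hoxd13 without array 1 of GM IgG or 3 of DM IgG (-0.39 to -0.22). The same probes differed between DM and GM MYF5 precipitates by 0.05 (Hoxa4), -0.12 and -0.16 (Hoxa9), -0.05 (Hoxc10), -0.08 (Hoxd13) and 0.21 (Hoxa7), none called. With the Actb gap as a covariate Hoxc10 was called in the MYF5 precipitates (-0.31, adjusted p = 0.031), and so was Hoxb4 (0.39, adjusted p = 0.015). With cyclic loess Hoxa7 (0.27, adjusted p = 0.020) and Hoxb4 (0.33, adjusted p = 0.021) were called there. Hoxc9 differed by 0.10 with MYF5 and 0.02 with IgG, both within the spread of the arrays. Probes with separate groups numbered 3 higher and 2 lower with MYF5, beside 54.5% of all probes separate either way, and 1 higher and 5 lower with IgG, beside 53.8%.

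**Figure D4:**
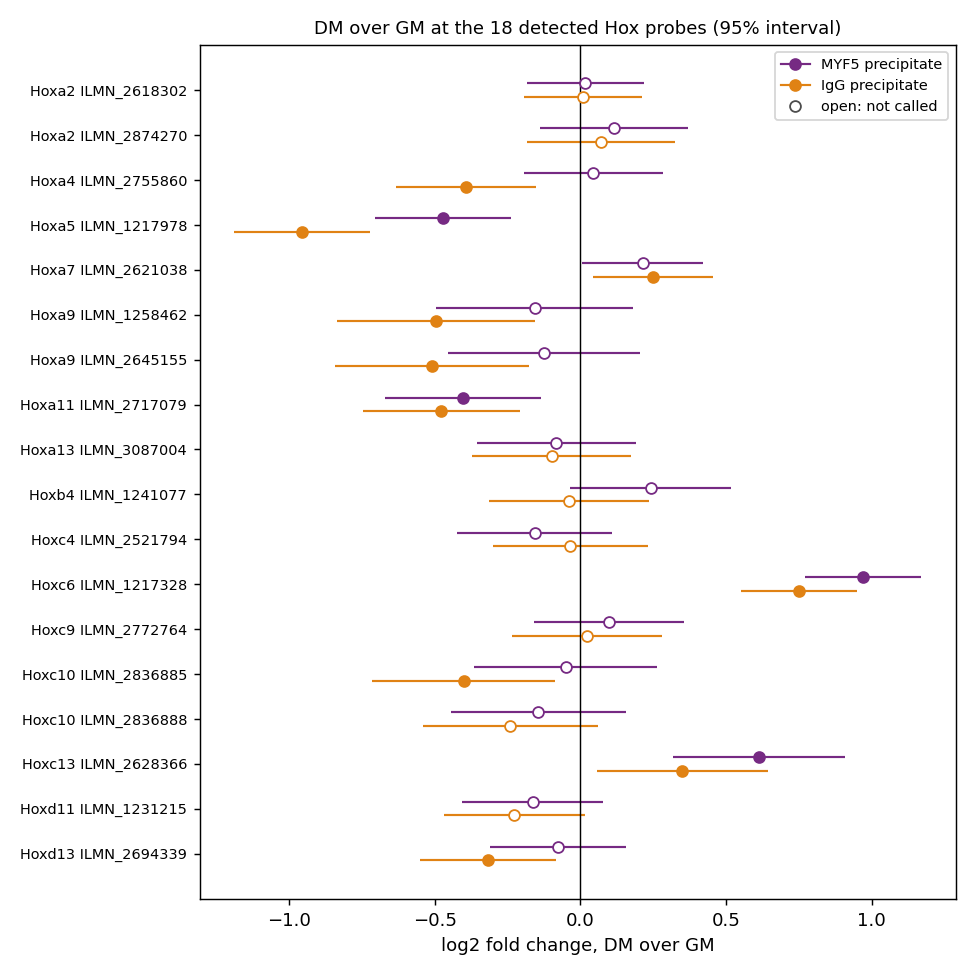
Log2 fold change of DM over GM with 95% intervals from the limma model for the 18 detected Hox probes, in MYF5 and in IgG precipitates (open points: not called). Hoxc6 is furthest to the right in both precipitates and Hoxa5 furthest to the left.

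Between paralogs, the A and C copies of position 9 changed unequally within the same arrays. This was looked at after the values were seen, for the 3 pairs of paralogs detected on all 16 arrays and 4 comparisons, 12 tests in all. The log2 gap Hoxa9 (ILMN_2645155) minus Hoxc9 was -1.33, -0.77, -0.66 and -1.11 on the DM MYF5 arrays, against -3.71, -3.38, -3.59 and -3.99 on the DM IgG arrays. In GM it was -0.91, -0.74, -0.71 and -0.62 with MYF5, against -3.26, -3.24, -3.14 and -2.89 with IgG. The mean gap with MYF5 minus that with IgG was 2.70 in DM and 2.39 in GM, and the antibodies' arrays did not overlap. This restates the opposite changes of both probes given above, whose groups were already separate, and is not a further result. The exact two-sided permutation p was 0.0286 each, the smallest this design allows, and 0.0858 adjusted over the 12 tests, so neither passed the correction. With IgG the gap was also lower in DM than in GM, by a difference of -0.53 with separate groups (exact permutation p = 0.0286, adjusted 0.0858). That too mostly restates the Hoxa9 change of -0.51 with IgG, as Hoxc9 differed by 0.02. The gap compares probes, not amounts of the RNAs.

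The Hoxa13 minus Hoxc13 gap averaged -1.03 ± 0.25 in DM MYF5 and -0.33 ± 0.29 in GM MYF5 (SD, n = 4 each), a difference of -0.70 with separate groups (exact permutation p = 0.0286, adjusted 0.0858). This mostly restates the Hoxc13 change of 0.61 given above, whose groups were already separate, and is not a further result. Hoxa13 itself differed by -0.08 there and was not called. The Hoxa4 minus Hoxb4 gap overlapped in every comparison.

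**Figure D5:**
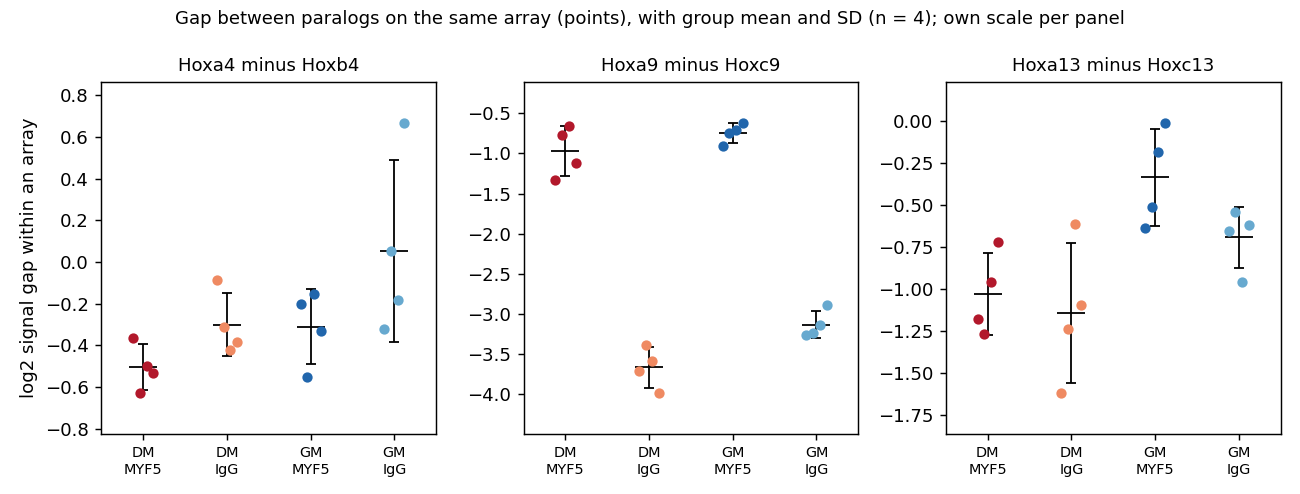
Log2 gap between paralogs on the same array (points) with group means and SD (n = 4), for DM MYF5, DM IgG, GM MYF5 and GM IgG; each panel has its own scale. For Hoxa9 minus Hoxc9 the MYF5 groups lie between -1.33 and -0.62 and the IgG groups between -3.99 and -2.89.

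Partners and regulators of Hox genes were looked up as lists chosen with earlier results of these data known. A gene stands here by its probe with the highest mean, and of all 9429 genes 54.3% were called in DM (27.7% higher, 26.6% lower) and 48.7% in GM (26.3% higher, 22.4% lower) for MYF5 over IgG. Of 7 tested TALE cofactors, the DNA-binding partners of Hox proteins, 5 were higher in DM and 4 in GM, and 0 were lower. In DM Pbx2 was higher by 0.87 and Meis1 by 0.73, and in GM Meis3 by 0.95 and Pbx3 by 0.87. Meis3 was dim, with a mean signal of 98.9 in GM MYF5 and 73.45 in GM IgG. The GM IgG value is within the range of the undetected Hox probes (44.1 to 86.5), which limits this call. Their median log2 fold change was 0.49 in each medium, against 0.02 in DM and 0.04 in GM for all genes.

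Of 23 tested Polycomb genes, 14 were higher and 2 lower in DM, and 12 were higher and 1 lower in GM. Aebp2, a cofactor of Polycomb complex 2, was higher by 1.27 in DM and 1.43 in GM, and Yaf2, of a variant Polycomb complex 1, by 1.42 and 1.01. Bmi1, of Polycomb complex 1, was higher by 1.05 in GM. Rbbp7, a histone-binding subunit, changed by -0.80 in DM and -0.52 in GM. Of 15 Trithorax and activator genes 8 were higher and 2 lower in DM, and 8 higher and 1 lower in GM. Men1, menin, was higher in DM by 0.76, and Dpy30, a subunit of Trithorax methyltransferases, changed by -0.75 in DM and -0.91 in GM. Of 6 cohesin genes, whose products hold chromatin loops, 0 were higher and 3 lower in DM, and 0 higher and 5 lower in GM. Smc1a, a ring subunit, changed by -1.44 in DM and -1.38 in GM.

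Of 9 tested retinoid genes, which carry the signal that induces Hox genes in embryos, 3 were higher and 0 lower in each medium, namely Rarg, Rara and Rdh10. Rara and Rdh10 were dim, with group mean signals of 75.68 to 104.1 and 80.2 to 111.4. Undetected Hox probes reached 86.5, so these calls have the same limit as Meis3. Of 8 other homeobox and related mesodermal genes 4 were higher and 0 lower in each medium, among them Msx1, a homeobox gene of undifferentiated limb mesenchyme, by 1.71 in DM (adjusted p = 2.3e-08). Only 2 ParaHox and neighbouring genes were tested, and 0 were called. The list named geminin holds Gmnn alone, which binds Hox proteins and Cdt1; it differed by -0.20 in DM and -0.38 in GM and was not called.

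For DM over GM, 61.5% of all genes were called in MYF5 precipitates (28.9% higher, 32.7% lower) and 63.5% in IgG precipitates (29.5% higher, 34% lower). Of 7 TALE genes 2 were higher and 3 lower with MYF5, and 2 and 2 with IgG. Pknox2 was higher by 2.25 with MYF5 and 2.45 with IgG, while Pknox1 changed by -1.16 and -1.12. The mean Pknox2 signal was 78.92 in GM MYF5 and 78.97 in GM IgG, within the range of the undetected Hox probes (44.1 to 86.5). In DM it was 186.3 with MYF5 and 220.2 with IgG. Pknox2 may have passed the detection filter through the DM arrays where it was higher, so its calls are not shown to be separate from the filter. Of 23 Polycomb genes 2 were higher and 9 lower with MYF5, and 2 and 8 with IgG. Phf19, a cofactor of Polycomb complex 2, changed by -2.63 with MYF5 and -2.27 with IgG, and Ezh2, the methyltransferase of that complex, by -1.37 and -1.15.

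Gmnn, which is high in cycling cells, changed by -1.52 with MYF5 and -1.71 with IgG. Its mean signal was 58.7 in DM MYF5 and 66.68 in DM IgG, within the range of the undetected Hox probes, against 119.5 and 127.8 in GM. The limit given for Pknox2 holds here too, with GM as the higher side. Of 15 Trithorax and activator genes 3 were higher and 9 lower with MYF5, and 4 and 8 with IgG. Of 6 cohesin genes 2 were higher and 2 lower with MYF5, and 1 and 3 with IgG. Of 9 retinoid genes 3 were higher and 1 lower in each, and Crabp2, a retinoic acid carrier, was higher by 2.05 with MYF5 and 2.13 with IgG. Of 8 other homeobox and related genes 2 were higher and 4 lower with MYF5, and 1 and 4 with IgG. Dlx1, a limb homeobox gene, changed by -1.83 with MYF5 and -1.96 with IgG, Dlx2, of the same family, by -1.52 and -0.95, and Prrx1, of limb mesenchyme, by -1.40 and -1.35. In DM IgG the mean signals of Dlx1 (75.62) and Dlx2 (77.78) were also within the range of the undetected Hox probes.

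In the test of the DM minus GM difference in the change with MYF5, 5.78% of all genes were called (2.48% higher, 3.3% lower). From these lists 3 genes passed. Ctcf, which marks cluster boundaries, was higher in the difference by 0.87 (adjusted p = 0.030). Aff1, of the elongation machinery, had a difference of -0.73 (adjusted p = 0.032) and Pbx3 one of -0.56, with an adjusted p that rounds to 0.05.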

How the data were processed

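RNA of anti-MYF5 and IgG precipitates was measured in 16 samples, which were grouped by their titles. Per the file headers, the deposited table pairs each array's signal intensity with its detection p-value, for 25697 probes. The intensities are not normalized between arrays, and GenomeStudio 2011.1 made them, per the submitters' processing notes. The deposited series values are a score that was checked to be each array's z-scored log10 signal, to within 5.0e-10, with array medians of -0.55 to -0.51. They were used as an alternative.

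Background was removed with limma's normal-exponential model, with controls inferred from the detection p-values and an offset of 16, and values were quantile-normalized and log2-transformed (limma 3.58.1, R 4.3.3). The detection filter of the report kept 13884 probes. One model with a mean per group (lmFit, eBayes with an intensity trend, 12 residual degrees of freedom) gave 5 comparisons, with Benjamini-Hochberg adjusted p-values at a threshold of 0.05. Single values were also tested by exact two-sided permutation. Some called probes had a permutation p above 0.05. In MYF5 over IgG in DM it was 0.0857 for Hoxa2 ILMN_2874270 and 0.0571 for Hoxc10 ILMN_2836885. In DM over GM with IgG it was 0.0571 for Hoxa7, Hoxa9 ILMN_1258462 and Hoxd13, and 0.114 for Hoxc10 ILMN_2836885 and Hoxc13. The remaining calls between 2 groups had 0.0286. The procedure was tested on simulated data. The number of arrays limits the precision.

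Symbols came from the platform annotation, updated by Entrez identifier for 23962 probes or, for 9, accession; GRCm38.p6 served for names and promoter windows only. In all 23978 probes had 1 symbol, 0 had several and 1719 had none. All Hox genes with a probe are accounted for, and from each list at most 3 called genes in a direction were named, those with the largest change in size. Members and lists were chosen with earlier results of these data known. Alternatives covered background correction, scaling, filters, the z-scores, the replicate block, the Actb gap, the arrays in the fit and leaving out each array.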

Additional observations from a re-analysis of the deposited data

Results flagged for a closer look

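A sample far from the other 3 of its group was found in 4 of 72 combinations of a detected Hox probe and a group, where chance gives about 1 in 20. Hoxa13 (ILMN_3087004) read 6.003 on DM MYF5 array 4 and 5.85 to 5.87 on the others. Hoxb4 (ILMN_1241077) read 5.05 on GM IgG array 4 and 5.57 to 5.66 on the others. Hoxc10 (ILMN_2836885) read 9.68 on that same array and 9.08 to 9.15 on the others. Hoxc13 (ILMN_2628366) read 6.19 on GM MYF5 array 4 and 6.35 to 6.36 on the others. GM IgG array 4 also had the lowest mean signal of the 16 arrays, 323.7, and an Actb gap of 4.21, and the part of these in its Hox values was not tested.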

How the results depend on the processing

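Of 1042 Hox values under settings other than leaving out an array, 989 kept their side of the threshold, 64 of which, called in neither fit, changed sign, 35 lost the call, 17 gained one and 1 reversed: Hoxc10 ILMN_2836885 in MYF5 over IgG in GM, 0.11, which became -0.38 when the Actb gap was a covariate (adjusted p = 0.05). Leaving out an array kept the side of 834 of 864, 45 of them uncalled with a changed sign, with 23 lost, 7 gained and 0 reversed. For DM over GM in IgG, 10 calls became 4 with median scaling, 4 without scaling and 5 with z-scores. For MYF5 over IgG in GM, 6 calls became 11 without scaling (10 higher) and 11 of 50 probes without the detection filter. The DM minus GM difference, with 0 calls, had 1 without the detection filter (Hoxc11 ILMN_2988178, -0.43) and 0 to 1 when an array was left out. Other leave-one-out ranges were 6 to 8 (MYF5 over IgG in GM), 7 to 9 (in DM), 7 to 9 (DM over GM in IgG) and 4 to 4 (in MYF5). In MYF5 over IgG in GM the median of all probes was 0.19 with median scaling and 0.32 without scaling, against 0.04, and the split of all probes was 4628 higher and 1637 lower, and 5588 and 1121, against 3705 and 3072. In the DM minus GM difference the medians were -0.27 and -0.38, and in DM over GM with IgG 0.09 and 0.19, against -0.07. The fit of only the groups compared gives no DM minus GM difference. Detected probes numbered 18, 13 at p under 0.01, 14 on at least 8 arrays, 27 on at least 1 and 14 on all 4 arrays of a group. Same-numbered replicates did not deviate together in every pair (correlations of 0.01 to 0.61 in GM and 0.02 to 0.42 in DM between antibodies, -0.14 to 0.24 in IgG and -0.12 to 0.29 in MYF5 between media; the own number correlated best for 2, 3, 2 and 1 of 4). With the replicate block the calls were 7 (GM), 9 (DM), 0 (difference), 10 (DM over GM in IgG) and 4 (in MYF5), and Hoxa2 ILMN_2874270 was added in GM (0.28, adjusted p = 0.049). The causes of these changes were not tested. With an offset of 50 the dim members' values were 0.15 (Hoxa2 ILMN_2874270, DM), 0.26 (Hoxb4, DM), -0.22 (Hoxa4, IgG) and -0.15 (Hoxd13, IgG), all still called. Members near background had signals that overlapped those of undetected probes, which limits their calls.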
